A study of Drosophila melanogaster with 2 samples.

Results

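The 10 genes described here encode the core of the Decapentaplegic (Dpp) pathway of Drosophila melanogaster: the ligand genes dpp and gbb, the receptor genes tkv, sax and put, the Smad genes Mad and Med, and shn, brk and Dad, which act on or after the Smads. They were chosen by name from 13968 protein-coding genes on the chromosome arms. For each gene, binding was read as the peak summits that lay inside the gene or within 10 kb of either end. All 10 genes had at least 1 such summit, 44 summits in all, where 58.4% of all protein-coding genes had one. Within 500 bp of an annotated transcription start site (TSS), 4 genes had one, against 18.2% of all genes. For 3 genes, no summit lay closer to their own TSS than to a neighbour's. Schnurri (shn) alone held 17 of the 44 summits, some of them in overlapping peaks. Merging overlapping peaks left 40 sites in the 10 windows.

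The study was a chromatin immunoprecipitation with sequencing of whole embryos aged 0 to 24 h that carried rib fused to eGFP from an inserted transgene. There was 1 group of 2 biological replicates. The labels describe an antibody to GFP, while their antibody field names rib, and chromatin was sheared to 200 to 800 bp. Ribbon, the product of rib, is a BTB-domain protein of the nucleus that tracheae and salivary glands need for their shape. Whole embryos of all these ages were pooled, so a peak cannot be assigned to a tissue or a stage, and few cells with strong binding and many cells with weak binding cannot be told apart.

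In this pathway, which belongs to the bone morphogenetic protein family, Dpp and Gbb bind a complex of type I and type II receptors. The receptors phosphorylate Mad, which joins Med and enters the nucleus. There Mad and Med can bring Schnurri to silencer elements and shut off brk, whose product otherwise represses many target genes. In the embryo the pathway patterns the dorsal ectoderm, acts in dorsal closure and guides part of the tracheal branches.

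The sequences at the strongest summits of 6 genes are printed here, and their likeness to each other was not measured. Each stretch below is the + strand of dm6, read from the RefSeq copy of the Release 6 assembly, with the summit base and up to 50 bases on either side. The stretches at tkv and Med were shortened so as to hold no untranslated exon. Capitals mark GAGAG or its complement CTCTC, the core of sites for GAGA factor, and in brk GTCTG, the core of a Smad box. For Med, the nearest TSS was that of a neighbour, Mnat9. The intervals were chr2L:2433580-2433680 at dpp, chr2L:5237363-5237447 at tkv, chr2L:3153398-3153498 at Mad, chr3R:31616161-31616220 beside Med, chrX:7306731-7306831 at brk and chr3R:17056674-17056774 at Dad.
dpp: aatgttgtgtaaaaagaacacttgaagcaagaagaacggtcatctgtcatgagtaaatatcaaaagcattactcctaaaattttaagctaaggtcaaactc
tkv: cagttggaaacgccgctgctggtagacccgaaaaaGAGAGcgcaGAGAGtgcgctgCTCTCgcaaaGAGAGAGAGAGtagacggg
Mad: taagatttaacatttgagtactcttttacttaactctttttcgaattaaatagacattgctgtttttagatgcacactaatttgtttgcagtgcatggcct
Med: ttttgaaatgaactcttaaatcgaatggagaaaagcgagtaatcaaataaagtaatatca
brk: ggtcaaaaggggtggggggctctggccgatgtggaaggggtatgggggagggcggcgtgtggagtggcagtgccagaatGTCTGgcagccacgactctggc
Dad: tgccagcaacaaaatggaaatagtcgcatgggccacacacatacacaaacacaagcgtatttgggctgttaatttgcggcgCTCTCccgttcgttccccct
The stretch at tkv carried runs of GAGAG, with 7 matches, some of them overlapping. Those at dpp and Mad and that beside Med held no searched motif and were rich in A and T, with 32.7%, 30.7% and 26.7% G and C. The stretch at brk was the richest of the 6 in G and C, with 66.3%.

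The peaks came from the list called on both replicates together, which held 4606 peaks with a median signal of 93.2. The signal is in the unit of the peak caller, 1 pooled value per peak with no replicate error, and sequencing depth is unknown. Replicate 1 had 3082 peaks of its own past the same threshold on the irreproducible discovery rate (IDR), and replicate 2 had 2181. Between replicates, the signal of the overlapping region with the nearest summit is given as a ratio to the median of that replicate's thresholded list. A summit is said to pass in a replicate where its peak overlapped a thresholded peak of that replicate by at least 1 bp, which need not be the region whose signal is given. With 1 group and no second condition or control among the data used here, no test between groups was possible, so the genes are set beside all protein-coding genes as a description.

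Having a summit in the window was common, since 58.4% of protein-coding genes had one, against all 10 of the pathway genes. Within 500 bp of a TSS, 4 of the 10 genes (tkv, shn, brk and Dad) had a summit, and 18.2% of all protein-coding genes did. Counted by TSS, 7 of the 23 annotated starts of the 10 genes had one (30.4%), against 17.2% of all starts. A summit in the window and nearest to a TSS of the gene itself, called its own summit below, was found for 7 genes (dpp, tkv, put, Mad, shn, brk and Dad), against 19.6% of all genes. Between the gene's ends there was a summit in 6 genes (dpp, tkv, put, Mad, shn and Dad), against 13.4% of all genes.

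The shares over all genes varied with gene length and on the number of starts. Of all genes with 1 annotated TSS, 13.1% had a summit within 500 bp of it, whereas 52.9% of genes with 4 or 5 starts did, the group to which dpp, tkv and shn belong. Of genes longer than 30 kb, as these 3 are, 48.2% had a summit between their ends, against 8.7% of genes shorter than 10 kb. The density of summits was 1.12 per 10 kb over the 10 windows and 0.862 per 10 kb without shn. Over the merged windows of all protein-coding genes it was 0.378 per 10 kb. These densities include summits nearest to neighbours, and merging counts gene-dense stretches only once. Counted per gene, the median number of summits in the window was 2 over the 10 genes and 1 over all protein-coding genes.

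**Figure D1:**
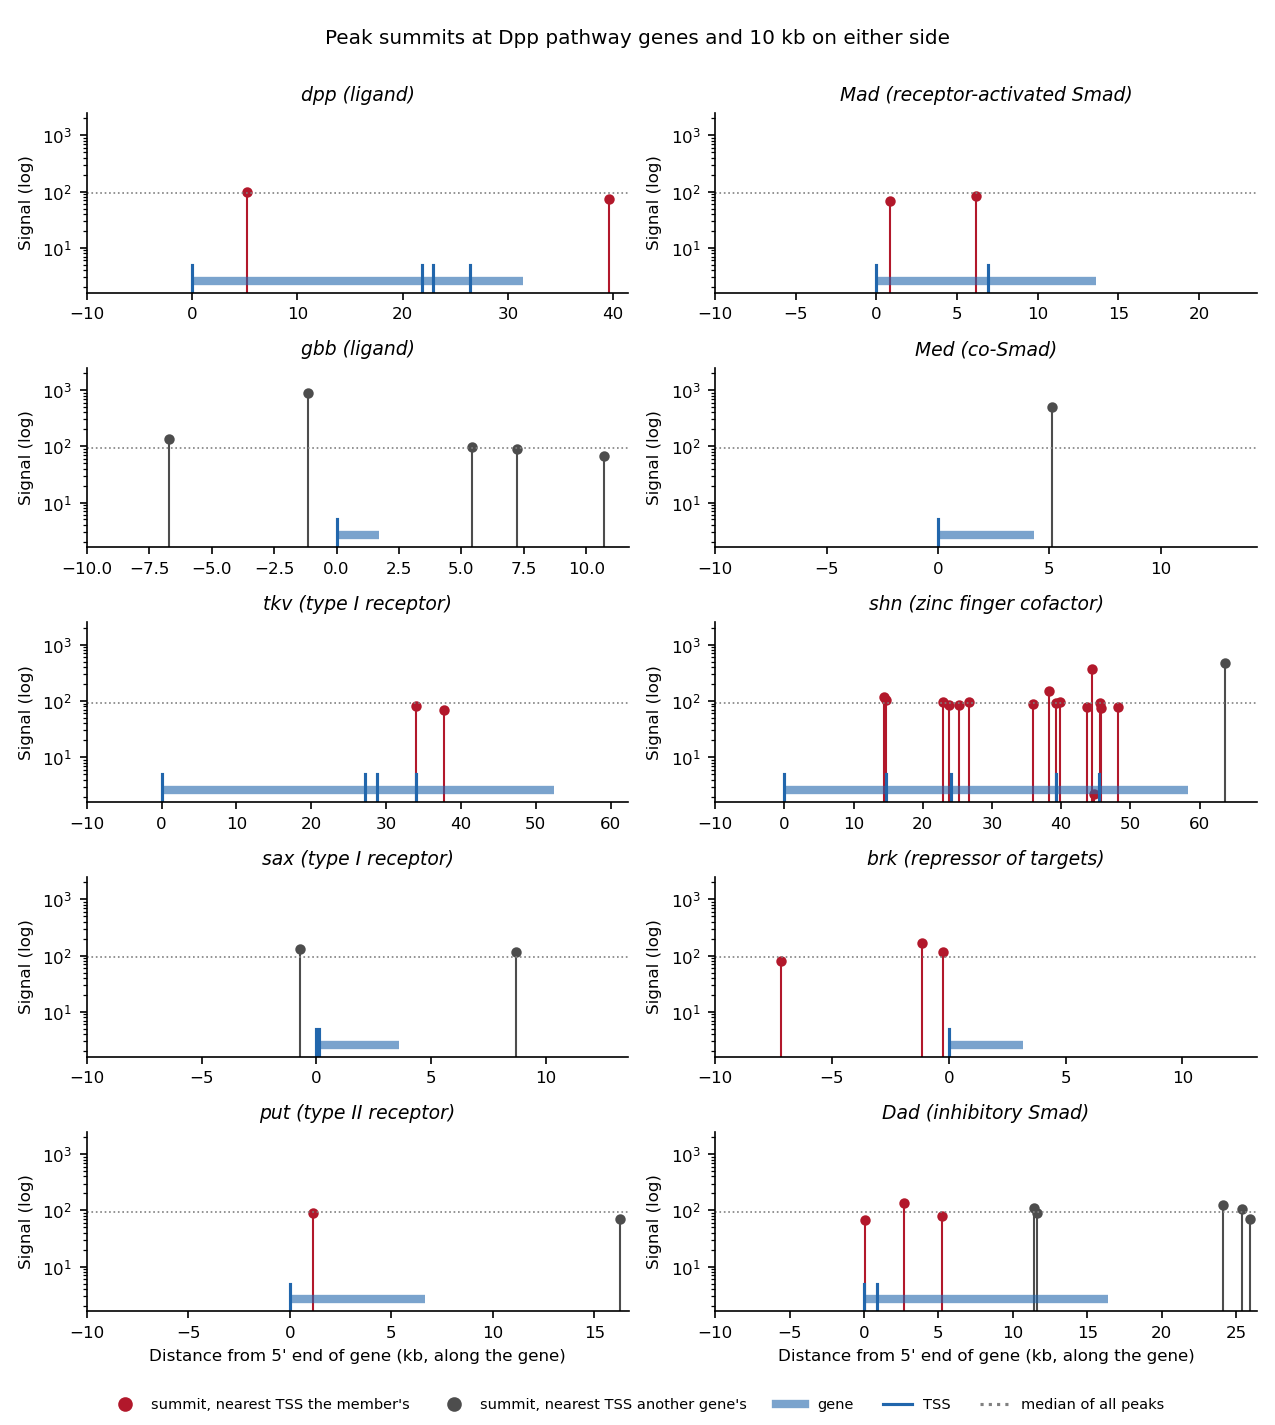
Position of each summit in the 10 windows (x axis, kb from the 5′ end of the gene) with its signal (y axis, log scale, the peak caller's unit), with a panel for each gene; red points are nearest to a TSS of the gene, grey points to that of a neighbour, blue bars are the genes with their TSSs as ticks, and the dotted line is the median of all peaks. The points of shn run along the gene, whereas all points of gbb, sax and Med are grey.

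Among the 44 summits, 29 were own summits, 16 of them at shn and 13 at the other 6 genes. Of the 29, 23 lay in introns, 5 in a 5′ UTR and 1 in intergenic sequence. They stood further from a start than most peaks: 9 of the 29 (31.0%) were within 500 bp of a TSS, against 52.0% of all 4606 peaks, and the median distance was 1055 bp, against 432.5 bp for all peaks. They were also not strong. Their median signal was 89.7, and 18 of 29 fell below the median of the whole list.

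The ligand gene dpp (FBgn0000490, 2L 2428372 to 2459823, + strand, 4 TSSs) had 2 own summits, both far from every start. The stronger one, at 2433630 in an intron and 5258 bp downstream of the first TSS, had a signal of 97.4, at rank 2116 of the list. Its regions in the replicates were alike in strength, 0.810 times the median in replicate 1 and 0.703 times in replicate 2, but it passed the threshold in replicate 1 alone. The other, at 2467940 in intergenic sequence 13203 bp beyond the last TSS, had a signal of 72.7, with ratios of 0.596 and 0.583, and passed in neither replicate. That sequence lies downstream of the transcription unit, on the side where imaginal disc enhancers of dpp are known. At the starts of dpp themselves there were only regions below the threshold: the strongest, 60 bp from the first TSS, had a signal of 61.8 and a score of 537, where thresholded peaks had at least 830. Such weak regions near a start were common, since 75.9% of protein-coding genes had a ranked region of any score within 500 bp of a TSS.

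The ligand gene gbb (FBgn0024234, 2R 23851562 to 23853247, + strand, 1 TSS), which lies in a gene-dense stretch with 9 other coding genes in its window, had 5 summits and none of its own. The strongest, at 23850413, had a signal of 880, at rank 9 of the whole list. It lay 1149 bp upstream of gbb but 112 bp upstream of eIF6, whose product keeps large ribosomal subunits free, and reached 6.52 times the median in replicate 1 and 7.42 times in replicate 2. The other 4 summits of the window lay within 500 bp of the starts of Snap29 (signal 133), Pym (98.5), bgcn (89.0) and TBPH (66.2). Of these, the summit at Snap29 passed in both replicates, the one at Pym in replicate 1, the one at bgcn in replicate 2 and the one at TBPH in neither. At the TSS of gbb the strongest region had a signal of 43.1 and a score of 105.

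The type I receptor gene tkv (FBgn0003716, 2L 5219000 to 5271384, - strand, 4 TSSs) had 2 own summits, both in introns. The one at 5237397, at the GAGAG runs printed above, was 35 bp upstream of a start inside the gene and had a signal of 80.1, at rank 3100. It was somewhat above the median in replicate 1, with 1.13 times, while no ranked region of replicate 2 overlapped it. The summit at 5233687, 3675 bp downstream of the same start, had a signal of 67.8, with 0.774 times the median in replicate 1 and 0.293 times in replicate 2. Both passed the threshold in replicate 1 alone, and neither was in the conservative list of the series. The 5′-most start of tkv had a region with a signal of 50.4 and a score of 447, below the threshold.

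The other type I receptor gene, sax (FBgn0003317, 2R 7806484 to 7810067, + strand, 2 TSSs), had 2 summits, and both belonged to neighbours by distance. The summit at 7805758, with a signal of 129, was 726 bp upstream of sax and 192 bp upstream of a start of Nop17l, which is transcribed the other way. It passed in both replicates, with 1.23 and 0.938 times the median. The summit at 7815151, with a signal of 118, lay in the 3′ UTR of puml and passed in neither. The region at the starts of sax had a signal of 50.6 and a score of 459.

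The type II receptor gene put (FBgn0003169, 3R 14619030 to 14625703, - strand, 1 TSS) had 1 own summit, in an intron. The signal was 90.2, at rank 2465, and the ratios were 0.807 in replicate 1 and 0.532 in replicate 2. It passed in neither replicate, although it was in the conservative list. A region below the threshold lay closer to the start, 237 bp downstream, with a signal of 77.7 and a score of 744. The remaining summit of the window, at 14609450 with a signal of 69.3, was 192 bp upstream of CG14853 and passed in both replicates.

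The receptor-activated Smad gene Mad (FBgn0011648, 2L 3146056 to 3159643, - strand, 2 TSSs) had 2 own summits in introns. At 3153448, 695 bp upstream of the inner start, the signal was 83.1, and the ratio was 0.982 in replicate 1 against 0.203 in replicate 2. At 3158831, 812 bp downstream of the outer start, the signal was 68.7, with ratios of 0.731 and 0.446. The first of these passed in replicate 1 alone and the other in neither, and the conservative list held neither.

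Its partner, the common Smad gene Med (FBgn0288966, 3R 31611046 to 31615375, + strand, 1 TSS), had 1 summit in its window, which was 10 bp upstream of Mnat9. This peak was strong, with a signal of 500 at rank 56, and reached 3.53 times the median in replicate 1 and 4.48 times in replicate 2. It lay 5124 bp from the TSS of Med, where the strongest region had a signal of 41.7 and a score of 147. Thus the genes gbb and Med had the strongest summits in their windows of all 10 genes, 880 and 500, and both of these lay at the promoter of a neighbour.

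**Figure D2:**
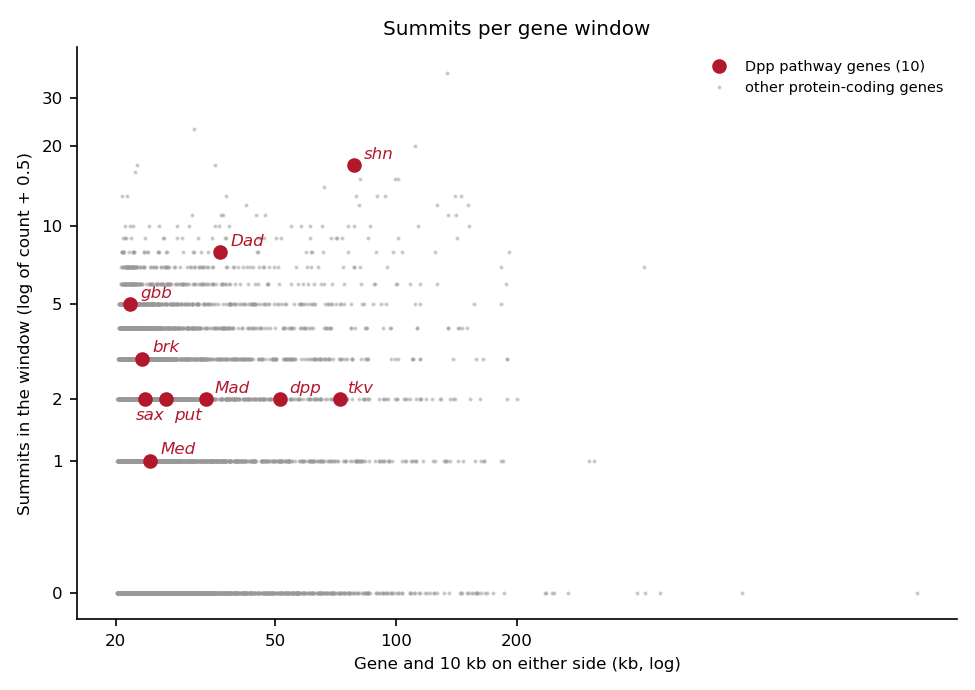
Number of summits in the window (y axis, drawn as the log of the count plus 0.5) against the length of the gene with 10 kb on either side (x axis, kb, log scale) for the 10 pathway genes (red, named) and the other protein-coding genes (grey). The gene shn, with 17 summits, stands above all but a few genes, and Dad has 8.

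The zinc finger gene shn (FBgn0003396, 2R 11159086 to 11217394, + strand, 5 TSSs), whose product works with Mad and Med at silencer elements, had the most summits of the set. Its window held 17, and only 3 of the 13968 genes had more. Of these, 16 lay between the ends of the gene, a count that 2 genes exceeded, and all 16 were nearest to a TSS of shn. Some of their peaks overlapped each other, and merging them left 13 sites. The counts of the other genes were not merged. The density in the window was 2.17 per 10 kb. With shn left out, the other 9 windows held 27 summits, of which 13 were own summits.

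The strongest own summit of shn, at 11203574, intronic and 1055 bp upstream of the last start, had a signal of 376 at rank 108. It was high in both replicates, with 3.79 times the median in replicate 1 and 2.00 times in replicate 2. The next were at 11197371, 905 bp upstream of the start at 11198276, with a signal of 151 and ratios of 1.54 and 1.03, and at 11173540, 263 bp upstream of the start at 11173803, with a signal of 120 and ratios of 1.06 and 1.05. All 3 of these passed in both replicates by overlap, but not always with a summit close by. The replicate 1 region matched to 11173540 had its summit 312 bp away, and only 29 bp from the summit at 11173823. The replicate 2 region matched to 11197371 had its summit 182 bp away.

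Of the 5 annotated starts of shn, 4 had a summit within 500 bp. The start at 11173803 had, besides the summit just given, one 20 bp downstream with a signal of 104. The start at 11183224 had one 285 bp upstream with a signal of 84.4, which passed in neither replicate. The start at 11198276 had one 59 bp downstream with a signal of 90.8, somewhat above the median in replicate 1 (1.13 times) and low in replicate 2 (0.286 times). The last start, at 11204629, had one 37 bp downstream with a signal of 91.0, which showed the same contrast, 1.16 against 0.114 times the median. Another, 245 bp downstream with a signal of 75.1, went the other way, with 0.552 times in replicate 1 and 0.747 times in replicate 2. Their peaks overlapped each other, so the low ratio of the first does not mean that replicate 2 lacked signal at this start. The first start, at 11159086, had no ranked region within 500 bp in the list of the series.

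The remaining own summits of shn had signals of 77.4 to 97.4, apart from the summit at 11203774. That one had a signal of 2.22, and its peak overlapped the peak of 376, with the same region matching it in each replicate. Of the 16 own summits of shn, 6 overlapped thresholded peaks of both replicates, 5 of replicate 1 alone, 2 of replicate 2 alone and 3 of neither. The 17th summit of the window, at 11222742 beyond the gene, had a signal of 471 and was 129 bp upstream of CG7737. It too was high in both replicates, with 3.93 and 2.90 times the median.

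**Figure D3:**
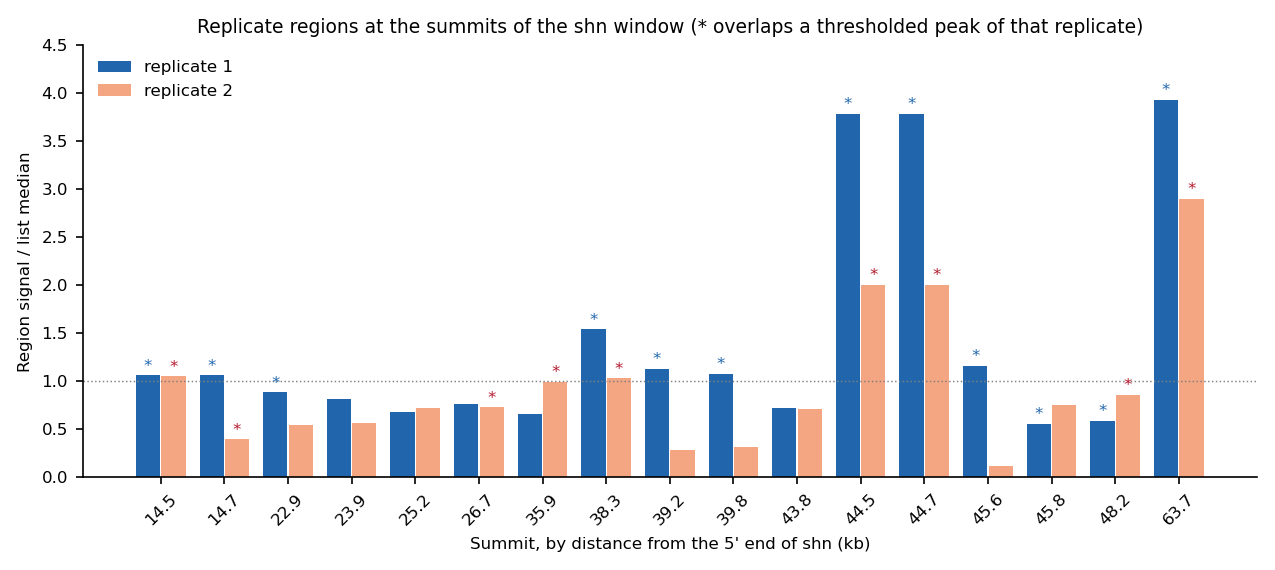
Signal of the matching region in each replicate as a ratio to the median of that replicate's thresholded list (bars, linear scale) for each summit in the shn window, in order of position from the 5′ end of the gene (x axis, kb, not to scale); stars mark any overlap with a thresholded peak of that replicate. Both replicates are highest at the summits with a signal of 376 and 471, and replicate 2 is lowest where it has 0.114 times the median. The bars at the summit with a signal of 2.22 repeat those of the 376 summit, since the same region matched both.

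The repressor gene brk (FBgn0024250, X 7307939 to 7311132, + strand, 1 TSS) had 3 own summits, all upstream of it. That stretch also lies in introns of long transcripts of CG1677 and lncRNA:CR44357 on the other strand. The strongest, at 7306781 and 1158 bp upstream, had a signal of 171 at rank 619, with 1.71 times the median in replicate 1 and 0.581 times in replicate 2. The summit 229 bp upstream had a signal of 116, with ratios of 1.06 and 0.581, and that 7178 bp upstream had 79.1, with 0.751 and 0.429. All 3 were thus higher in replicate 1; the first and the last passed there, and none passed in replicate 2.

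The silencer element through which Schnurri, Mad and Med act on brk was searched by its consensus on both strands. It occurred 385 times on the arms, 8 of them inside a peak (2.08%). In the windows of the 10 genes there were 10, which is 2.55 per 100 kb, against 0.28 per 100 kb of the arms, and 8 of the 10 were at brk. None of the 10 was inside a peak. At brk, 7 of the 8 lay upstream of the TSS, from 2169 to 8210 bp away, and the closest was 479 bp from a summit, the one with a signal of 79.1. The element at 2169 bp was 1011 bp from the summit with a signal of 171.

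The inhibitory Smad gene Dad (FBgn0020493, 3R 17054007 to 17070408, + strand, 2 TSSs), itself a target of the pathway that dampens it, had 8 summits in its window, a count that 75 genes exceeded. Its 3 own summits were at 17056724 in an intron, with a signal of 136 at rank 1049, at 17059260 in an intron, with 79.2, and at 17054067 in the 5′ UTR, 60 bp downstream of the first TSS, with 68.4. The strongest had 1.54 times the median in replicate 1 and 0.575 times in replicate 2, and passed in replicate 1 alone. The other 2 passed in neither, with 0.734 and 0.592 times at 17059260 and 0.642 and 0.535 times at 17054067.

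Another pair of overlapping peaks lay in an intron of Dad, at 17065399 with a signal of 112 and at 17065611 with 88.7. They were 10502 and 10714 bp from the nearer start of Dad and closer to that of Ns1, at 7276 and 7064 bp. The pair passed in both replicates, with the same region of each replicate matching both peaks. The other 3 summits of the window belonged to Keap1, whose product senses oxidative stress. They had signals of 124 at 49 bp upstream of a start, 106 at 572 bp downstream and 69.1 at 4 bp downstream of one, and the first of them passed in both replicates.

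Between the replicates, own summits and those of neighbours looked different. Of the 29 own summits, 6 overlapped thresholded peaks of both replicates (20.7%), 12 of replicate 1 alone, 2 of replicate 2 alone and 9 of neither. Of the 15 summits that lay nearest to another gene, 11 were within 500 bp of its TSS. Of the 15, 9 overlapped peaks of both (60.0%), against 34.3% of all 4606 peaks. Those 9 include the overlapping pair in Dad, which matched the same region in each replicate. The summits of neighbours were also stronger. Their median ratios were 1.04 in replicate 1 and 0.857 in replicate 2, against 0.811 and 0.581 for own summits. Overlap with replicate 1 was 62.1% for own summits and 62.1% for all peaks. Overlap with replicate 2 was 27.6% for own summits and 44.9% for all peaks.

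All 6 own summits found in both replicates were at shn, and they came from 4 sites once overlapping peaks were merged. Of the 13 own summits of dpp, tkv, put, Mad, brk and Dad, 7 overlapped thresholded peaks of replicate 1, none those of replicate 2, and 6 those of neither. In strength, too, replicate 1 was the higher for most: 24 of the 28 own summits with a region in both replicates had a higher ratio in replicate 1 (85.7%), against 65.6% of the 4579 such peaks in all. The median ratio of own summits was 0.811 in replicate 1 and 0.581 in replicate 2, while all peaks had 0.851 and 0.695. Differences in depth or quality between the replicates were not tested, since the lists hold no read counts. In the conservative list, 22 of the 29 own summits overlapped a peak, against 78.0% of all peaks.

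**Figure D4:**
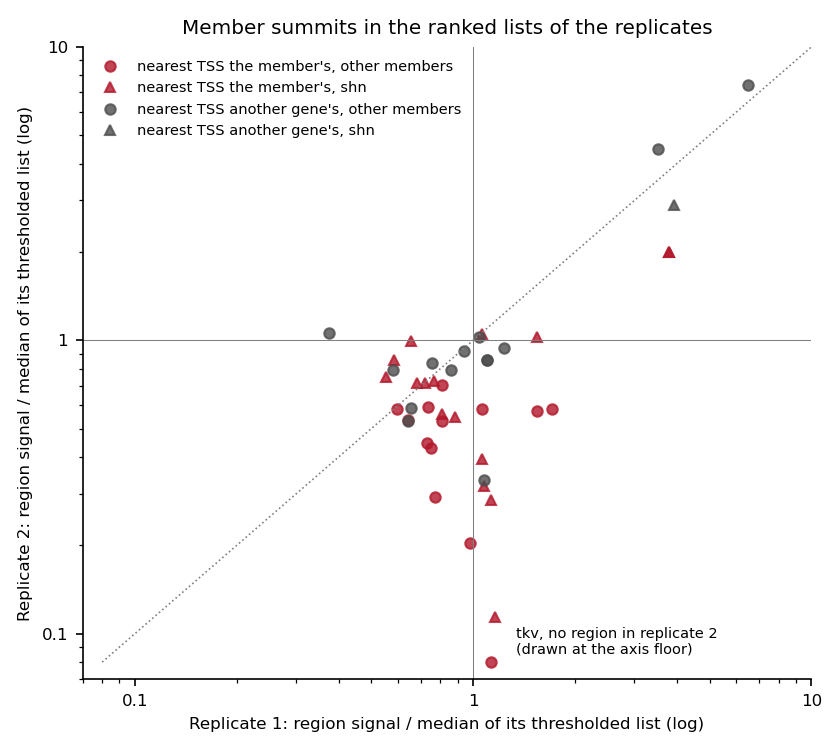
Ratio of the signal to the median of the thresholded list in replicate 1 and replicate 2 (log scales) for the summits of the 10 windows, with own summits in red, those nearest to a neighbour in grey and shn as triangles; the tkv summit without a region in replicate 2 is drawn at the axis floor. Most own summits lie on the side where replicate 1 is higher, and the strongest points, up to 6.52 and 7.42, belong to neighbours.

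The calls at a TSS rested on the list used. With the list of replicate 1 alone, tkv and shn had a summit within 500 bp of a TSS, 2 of the 10 genes against 13.0% of all genes. With that of replicate 2 alone, shn did, 1 of 10 against 10.7%. The stronger 50% of the peaks left shn and brk, 2 of 10 against 11.5%. When only the 5′ end of each gene was counted, 2 of the 10 genes, brk and Dad, had a summit within 500 bp, against 16.0% of all genes.

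Short motifs were searched within 50 bp of each summit on both strands, and a match is a match of letters, not a site shown to be bound. GAGAG, the core bound by GAGA factor, was in 10 of the 29 own summits (34.5%) and 12 of all 44 (27.3%), against 19.2% of the 4606 peaks. Overlapping matches in a run count once per summit. Of those 10, 5 were at shn and 5 at other genes. The Smad box GTCTG was in 9 of 44 (20.5%), against 12.6% of peaks, among them the strongest own summits of brk and shn. The Mad site GCCGNCG was in 1 of 44 (2.27%), against 5.19%, and the Brinker site GGCGCC was in 3 (6.82%), against 1.98%. Of those 3, 2 were in introns of Dad, 1 of them nearer to Ns1, and the other was in the 3′ UTR of puml. Among own summits the Brinker site was thus in 1 of 29 (3.45%). The core promoter element DRE, TATCGATA, was in 1 summit (2.27%), that of Pym in the gbb window, against 1.8%. The Zelda site CAGGTAG was in none of the 44, against 0.499% of peaks. The silencer element was within 50 bp of none of the 44 summits, and of no summit among the 4606 peaks.

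Beyond the 10 genes, 48 further genes of the pathway were listed in 5 groups, and all 48 were found in the annotation. A summit within 500 bp of a TSS was present at 18 of them (37.5%), against the 18.2% of all protein-coding genes given above, and 33 had one in the window (68.8%), against 58.4% of all genes. With the list of replicate 2 alone the count at a TSS was 8, where 10.7% of all genes were bound, and with that of replicate 1 alone it was 12, where 13.0% were.

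Of the remaining ligand and receptor genes, 1 of 2 was bound. The type II receptor gene wit, which acts at the neuromuscular junction, had a summit of signal 101 just 1 bp upstream of the TSS. The gene scw, for the ligand that works with Dpp in the early dorsal ectoderm, had no summit in its window. Of the 6 genes of the related activin branch, 2 were bound: the Smad gene Smox, with a signal of 113, and the type I receptor gene babo, with 63.0. The ligand genes Actbeta, daw and mav had no summit in their windows.

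Of 12 genes for extracellular regulators, 4 were bound. They were the glypican genes dally, with a signal of 139 at 17 bp downstream of its TSS, and dlp, with 105, the gene for the BMP-binding protein cv-2, with 135, and magu, with 87.4. The genes cv, cv-d and Fs had none within 500 bp of a start. Of 8 genes for intracellular regulators, 4 were bound: the co-repressor gene gro, with 188, the pro-protein convertase gene Fur1, with 173, the ubiquitin ligase gene Smurf, with 74.5, and the co-repressor gene CtBP, with 56.4. Fur2, nej and nmo had none within 500 bp of a TSS, although all 8 genes had a summit in the window. The peaks of gro, Fur1, cv-2 and dlp passed in both replicates, whereas those of Smurf and CtBP passed in neither.

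Of 20 known targets, 7 were bound. The strongest were at tin, the homeobox gene of the heart and visceral mesoderm, with a signal of 151 at 175 bp upstream, and at ush, which encodes a partner of GATA factors, with 143 at 2 bp upstream. Both passed in both replicates. The T-box genes Doc3, with 82.4, and bi, with 81.6, followed and passed in neither. The genes bap, Doc1 and Doc2 had no summit within 500 bp of a start.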

How the data were processed

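Binding of rib-eGFP was measured by ChIP-seq in 2 replicates of whole embryos. The authors deposited ranked regions and peaks past an IDR threshold per replicate and for the series, with a conservative list, on dm6; the sources used here do not name the aligner or peak caller. The deposited signal is a peak caller's measure of strength, of unstated scaling. The deposited score is the IDR rescaled, at least 830 in thresholded lists, and the deposited ranked lists give the global IDR also as its −log10. Depth is unknown, and no control was analysed here.

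Summits, counted from 1, were placed on Ensembl release 115 (BDGP 6.54) with TSSs of protein-coding transcripts, and sequence came from RefSeq for the strongest summits of 6 genes; those of gbb, sax, put and shn are not reported here. A replicate's region matched a peak if they overlapped by at least 1 bp, and the one with the nearest summit gave the signal. Calculations used Python 3.11.15, numpy 2.4.6 and pandas 2.3.3, plots matplotlib 3.10.9, and the steps were tested on simulated data. The members and lists were chosen with earlier results of these data known. All 10 genes were named; of each other list, up to 4 bound genes by signal and up to 3 unbound ones in alphabetical order; and neighbours only where they were nearer to a summit. Alternatives were other lists, windows, flanks, overlaps and TSS sets.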

Additional observations from a re-analysis of the deposited data

Results flagged for a closer look

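Beside Med, 2 ranked regions of the series passed the score of thresholded peaks but were not in the thresholded list, and so entered no count above. One, at 3R 31608924, had a signal of 105 and lay 2122 bp upstream of Med, and the other, at 3R 31607579, had a signal of 59.6 and lay 3467 bp upstream. Both were nearer to a start of CycG, at 891 and 2236 bp. The whole series held 172 such regions, and no control samples were analysed here to set beside them.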

How the results depend on the processing

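No paired analysis was possible because there is 1 group. Leaving out 1 replicate in turn, and so using the other's own list, gave 6 to 10 genes with a summit in the window (10 as reported), 1 to 2 with one within 500 bp of a TSS (4), 17 to 30 summits (44) and 8 to 12 bound genes among the 48 further ones (18). Of all protein-coding genes, 40.7% had a summit in the window without replicate 1, and 47.3% without replicate 2. The stronger 50% of peaks gave 2 genes at a TSS and 21 summits, and the 5′ end alone 2 genes. Gene bodies alone held 27 summits in 6 genes, and own summits numbered 29. Without shn, which was chosen after seeing the data as were merged peaks and other lists for the 48 genes, there were 27 summits, 13 of them own, and 8 in both replicates, against 15. Summits within 100 bp of each other gave 9 in both. With the strongest overlapping region in place of that with the nearest summit, also chosen after seeing the data, 25 rather than 24 of 28 own summits were higher in replicate 1 (89.3%, against 67.5% of all peaks), and merging overlapping peaks left 4 rather than 6 own ones in both. The lists of the replicates are separate lists, not subsets, and the cause of their lower counts was not tested. Motifs within 100 bp of a summit rather than 50 bp were at 20 summits for GAGAG (12) and 1 for the Zelda site (0). In that wider window the Brinker site was at 6 (3), the Mad site at 6 (1) and the Smad box at 14 (9). The share of all peaks was not counted for the wider window, so these counts cannot be set beside the shares given above. The conservative list gave 9 genes in the window, against 55.1% of all protein-coding genes, 3 at a TSS, against 16.5%, and 36 summits. Depth limits cannot be given, as the lists hold no read counts.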
